A study of Mus musculus with 18 samples.

Results

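Male and female fetal mouse lungs were compared at GD18, shortly before term, in 3 pools from vehicle-injected dams of each sex (18 m and 18 f). These 6 arrays, taken by their GEO titles, are part of a series of 18. Autosomal genes alone were counted, each through its probe set of highest mean over the 18 arrays, which left 17516 of 18193 genes with 1 symbol.

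All fetuses were BALB/c. The dams were given vehicle alone, saline with gelatin and dimethylsulfoxide, under the skin once each day, starting on GD10 and ending on the eve of lung collection, so that neither group was exposed to flutamide, the antiandrogen given to the other males of the series. Each pool held lung RNA of 3 fetuses of the same sex from distinct litters, and sex was read from the genital tract and by PCR of Sry. The other 12 arrays carry vehicle-injected males and females of GD17 (17 m and 17 f) and flutamide-treated males of both days.

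Lung RNA was hybridized to Affymetrix MOE430 2.0 arrays, and levels are given as log2 of the RMA-normalized probe set signal that the authors deposited. A difference is the log2 level of 18 m minus that of 18 f, with the standard error (SE) of a limma model fitted to all 18 arrays. A gene was called when its adjusted p (Benjamini-Hochberg over 45037 probe sets) was under 0.05. Levels of different genes are not compared, since each probe set has its own response.

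Late in gestation the mouse lung passes from the canalicular to the saccular stage, in which airspaces widen, the mesenchyme thins, cell division slows and alveolar type II cells start to make surfactant, the lipid and protein film that lowers surface tension. Male lungs are known to mature later than female lungs in several mammals, and androgens are known to delay surfactant production. Cell division is driven by waves of transcription: E2F factors switch on DNA replication genes for S phase, and the MuvB and B-Myb complexes then switch on the genes of mitosis.

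Sex-linked genes separated the pools as labelled. Xist, which silences an X chromosome in female cells, lay between 7.98 and 8.21 in 18 m and between 12.33 and 12.51 in 18 f, while Uty, Kdm5d and Eif2s3y, which lie on the Y chromosome, were at 7.90 or more in 18 m and at 3.84 or less in 18 f. The surfactant protein gene Sftpc lay between 14.57 and 14.59 in 18 m and between 14.56 and 14.65 in 18 f. Pool 3 of 18 m stood apart. Averaged over 28 liver genes and relative to the mean of the 6 pools, its level was 2.51, against 0.02 and -0.26 in the other 18 m pools and -1.18 to -0.46 in 18 f. For 21 heart muscle genes pool 3 was at 0.96, against -0.49 and -0.42 in the other 18 m pools and -0.15 to 0.09 in 18 f. Its spiked control RNAs had a 5' minus 3' signal of -2.40, against -0.67 and -0.76 in the other 18 m pools and -0.99 to -0.92 in 18 f. For Gapdh of the lung RNA this signal was -0.39 in pool 3, against 0.20 and 0.19 in the other 18 m pools and 0.16 to 0.18 in 18 f. For beta-actin it was -0.80, against -0.35 and -0.39 in the other 18 m pools and -0.44 to -0.38 in 18 f. Lymphocyte genes were high in pool 1 of 18 m (1.19), and skeletal muscle genes were high in pool 2 of 18 f (1.72). The part of these tissues and of RNA quality in the results was not tested, and counts are therefore given with and without pool 3 of 18 m. In whole lungs, fewer cells of a type and less RNA per cell cannot be told apart.

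Of 17516 autosomal genes, 251 were called higher in 18 m (1.43%) and 41 lower (0.234%). Among all 45037 probe sets, sex-linked ones included, 1.10% were called higher and 0.755% lower. Differences were small, with a median size of 0.40 among the 292 called genes, 215 of them under 0.5 and 4 of 1 or more. The 3 + 3 pools did not overlap in 287 of the 292, whereas over all genes 11.5% lay wholly higher in 18 m and 6.44% wholly lower. Of the genes called higher 156 had further probe sets, and in 41 of these another probe set was called higher and in 0 lower. The median difference of all autosomal genes was 0.02. Of the calls 86.0% were higher in 18 m, with 208 higher and 76 lower after a further quantile normalization and 192 higher and 81 lower after cyclic loess.

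Without pool 3 of 18 m, 940 genes were called higher (5.37%) and 194 lower (1.11%), and 264 of the 292 genes were called again in the same direction. The counts rested on single pools in the other direction too. In all, 45 genes were called without pool 1 of 18 f, 55 without pool 3 of 18 f, 153 without pool 1 of 18 m and 117 without pool 2 of 18 m. Genes called lower numbered between 6 and 23 in these fits and without pool 2 of 18 f. With only the 6 arrays in the model, 3 genes were called, Cenpe, Kif20b and Zfp820.

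Of 44 autosomal genes of mitosis and chromosome segregation, 15 were called higher in 18 m and 0 lower, beside 1.43% and 0.234% of all autosomal genes. In the list 43 had a positive difference, and the median difference was 0.29. The mean relative level of the list was 0.27, 0.29 and -0.01 in 18 m, against -0.32, -0.04 and -0.20 in 18 f. Without pool 3 of 18 m, 34 were called higher and 0 lower, with a median of 0.45. The shares of all autosomal genes were then 5.37% and 1.11%. The count was between 5 and 7 without pool 1 or pool 3 of 18 f or without pool 1 or pool 2 of 18 m.

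Mki67, which encodes the Ki-67 protein that coats chromosomes in dividing cells, was at 10.90, 11.03 and 11.29 in 18 m, against 9.84, 10.10 and 9.85 in 18 f. Every 18 m pool lay above every 18 f pool, and the difference was 1.14 (SE 0.12, adjusted p = 0.00011), a 2.21-fold higher signal. Cenpf, a protein of the outer kinetochore, was at 8.51, 8.76 and 8.59 in 18 m and at 7.45, 7.77 and 7.53 in 18 f. Its difference of 1.04 (SE 0.12, adjusted p = 0.00064) was again larger than the spread in either group. Cenpe, the kinesin that moves chromosomes to the metaphase plate, was at 7.98, 8.20 and 8.08 in 18 m, against 6.90, 7.17 and 7.11 in 18 f. Its 18 m pools were about 2.04-fold higher (difference 1.03, SE 0.11, adjusted p = 0.00015). Kif20b, a kinesin of cytokinesis, was at 6.52, 6.61 and 6.57 in 18 m, against 5.50, 5.71 and 5.59 in 18 f (difference 0.97, SE 0.13, adjusted p = 0.0024). These genes and Smc4, a condensin subunit (difference 0.66, SE 0.10, adjusted p = 0.0043), were called with each of the 6 pools left out in turn.

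**Figure D1:**
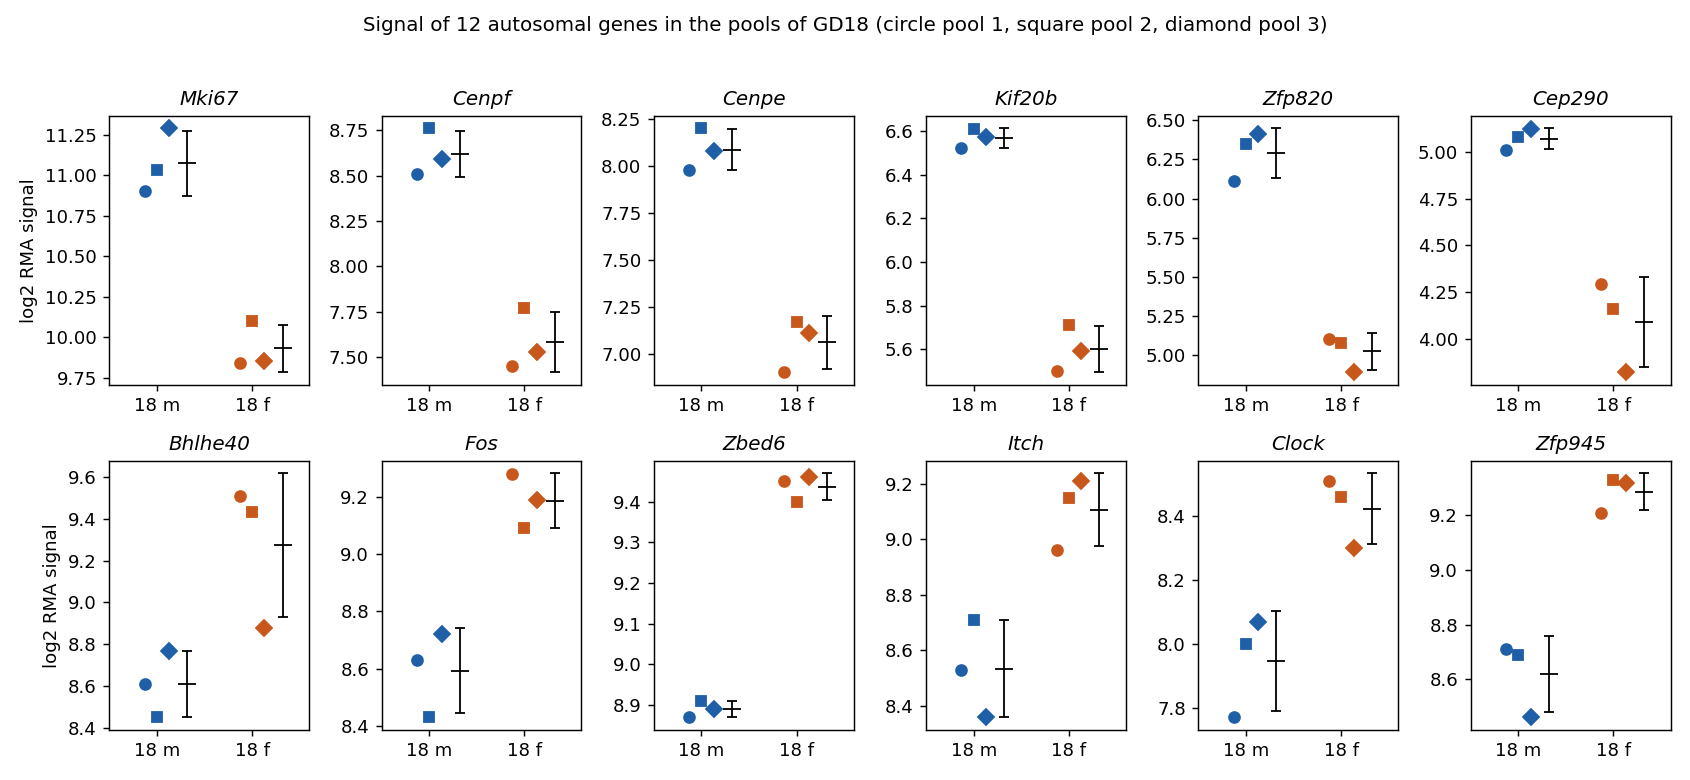
Log2 RMA signal of 12 autosomal genes in each pool of GD18, with 18 m in blue and 18 f in orange. The shape of a point gives the pool number, and the dash and bar beside each group are its mean and SD over 3 pools. Genes in the upper row lay higher in every 18 m pool than in any 18 f pool, and genes in the lower row lay lower in every 18 m pool.

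The other mitotic genes that were called are Ncapg and Smc2 of condensin, the kinetochore genes Spc25 and Knl1, the spindle checkpoint kinase gene Bub1, the cohesin protector Sgo1, the kinesin genes Kif11 and Kif23, and the spindle genes Aspm and Hmmr. Their differences lay between 0.40 and 0.56, with adjusted p between 0.013 and 0.047. Each of them lost its call with at least 2 of the 6 pools left out in turn. Several well-known mitotic genes were not called. Cdk1, the mitotic kinase, had a difference of 0.17 (SE 0.12, adjusted p = 0.59), Plk1 of 0.13 (SE 0.15, adjusted p = 0.78) and Top2a, the topoisomerase that untangles sister chromatids, of 0.29 (SE 0.10, adjusted p = 0.16). In Plk1 pool 3 of 18 m was at 8.03, below all 18 f pools (8.27, 8.50 and 8.35), while pools 1 and 2 of 18 m were at 8.77 and 8.71. Without pool 3 the differences were 0.34 for Cdk1 (adjusted p = 0.051), 0.37 for Plk1 (adjusted p = 0.042) and 0.41 for Top2a (adjusted p = 0.011).

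The promoters of Mki67 and Cenpf, the mitotic genes with the largest differences, are shown to illustrate the elements through which such genes are known to be regulated. They are RefSeq windows of 300 bases, 250 before and 50 after the start, in GRCm38.p6 on the minus strand, at chr7:135716330-135716629 for Mki67 and chr1:189688037-189688336 for Cenpf. Capitals mark the cell cycle homology region, searched as TTTGAA, the site of the MuvB complex, and the CCAAT box of NF-Y, searched as CCAAT, on both strands, and no 2 marked motifs overlap.
Mki67: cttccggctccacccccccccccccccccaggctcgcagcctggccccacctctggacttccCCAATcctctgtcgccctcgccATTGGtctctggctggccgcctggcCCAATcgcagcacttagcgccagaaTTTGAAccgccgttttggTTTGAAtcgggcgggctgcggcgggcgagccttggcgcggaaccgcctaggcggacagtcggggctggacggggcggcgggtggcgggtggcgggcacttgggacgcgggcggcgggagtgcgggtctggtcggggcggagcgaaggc
Cenpf: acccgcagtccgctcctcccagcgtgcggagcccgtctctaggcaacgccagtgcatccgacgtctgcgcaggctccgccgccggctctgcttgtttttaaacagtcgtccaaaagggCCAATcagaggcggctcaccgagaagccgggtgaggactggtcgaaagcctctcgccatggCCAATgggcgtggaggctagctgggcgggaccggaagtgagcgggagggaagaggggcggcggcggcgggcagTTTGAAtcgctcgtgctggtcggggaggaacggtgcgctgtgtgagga
The Mki67 window holds 2 TTTGAA and 3 CCAAT motifs, and that of Cenpf 1 and 2. TTTGAA was found in 77.5% of 40 windows of the mitotic list, which cover 37 of its genes, against 17.9% of all 32851 promoter windows, and CCAAT in 75% against 37.4%. By gene, TTTGAA was found in 11 of 14 called and in 18 of 23 genes that were not called, and CCAAT in 12 of 14 called and in 15 of 23 that were not called. A match to letters is a description and not a measured site.

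The calls among DNA replication genes depended more on pool 3 of 18 m. Of 36 genes, 5 were called higher and 0 lower, beside 1.43% and 0.234% of all autosomal genes. The median difference was 0.32, with a positive or zero difference in all 36. Without pool 3, 29 were called higher and 0 lower, beside 5.37% and 1.11% of all autosomal genes, and the median was 0.46. The count was 1 without pool 1 of 18 f, without pool 3 of 18 f or without pool 1 of 18 m, 3 without pool 2 of 18 m and 9 without pool 2 of 18 f. The mean relative level of the list was 0.38 and 0.23 in pools 1 and 2 of 18 m and -0.12 in pool 3, against -0.31, -0.01 and -0.17 in 18 f. Pool 3 of 18 m thus lay within the range of 18 f, and the groups overlapped.

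Gins1, a subunit of the replicative helicase, was at 7.60, 7.53 and 7.13 in 18 m, against 6.57, 6.92 and 6.71 in 18 f. Its difference of 0.68 (SE 0.11, adjusted p = 0.0068) was called with each pool left out in turn, and its pools did not overlap. The 1 further probe set of Gins1 did not share this sign and was not called. Cdc6, which loads the helicase at origins, had a difference of 0.73 (SE 0.16, adjusted p = 0.032), with 8.80, 8.44 and 8.16 in 18 m and 7.43, 8.16 and 7.61 in 18 f. Pool 3 of 18 m and pool 2 of 18 f met at 8.16, and the call was lost without pool 1 or 3 of 18 f (adjusted p = 0.17 and 0.13) or without pool 1 or 2 of 18 m (adjusted p = 0.11 and 0.077). The DNA ligase gene Lig1 (0.36, SE 0.07, adjusted p = 0.022), the single-strand binding protein gene Rpa2 (0.46, SE 0.10, adjusted p = 0.023) and the helicase gene Mcm3 (0.45, SE 0.11, adjusted p = 0.045) were also called. Outside the list, Dscc1, which helps load the sliding clamp, was higher by 0.76 (SE 0.18, adjusted p = 0.046), and Hells, a chromatin remodeler of dividing cells, by 0.69 (SE 0.17, adjusted p = 0.043).

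Rrm1, the large subunit of ribonucleotide reductase, shows the weight of pool 3 of 18 m. It was at 10.53, 10.21 and 8.69 in 18 m, against 9.63, 9.93 and 9.86 in 18 f. The difference was 0.00 (SE 0.29) with all pools and 0.56 without pool 3 (adjusted p = 0.0051). Pcna, the sliding clamp, was at 12.74, 12.47 and 11.80 in 18 m and at 11.91, 12.26 and 12.05 in 18 f, with a difference of 0.26 (adjusted p = 0.49) that was 0.53 without pool 3 (adjusted p = 0.0059).

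The promoter of Cdc6, the replication gene with the largest difference, is shown in the same build at chr11:98907901-98908200 on the plus strand. Capitals mark the E2F-type motif, searched on both strands as TTTNNCGC, and no CCAAT was found in this window.
Cdc6: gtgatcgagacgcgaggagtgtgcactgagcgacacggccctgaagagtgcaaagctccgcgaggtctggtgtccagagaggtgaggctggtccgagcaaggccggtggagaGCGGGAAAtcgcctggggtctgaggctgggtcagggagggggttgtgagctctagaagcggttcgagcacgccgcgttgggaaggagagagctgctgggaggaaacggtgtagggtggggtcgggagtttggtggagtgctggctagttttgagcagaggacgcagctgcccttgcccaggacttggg
TTTNNCGC was found in 41.2% of 34 windows of the replication list, which cover 29 of its genes, against 5.17% of all promoter windows and 17.5% of those of the mitotic list. By gene, TTTNNCGC was found in 3 of 4 called and in 10 of 25 that were not called. TTTGAA was found in 11.8% of the replication windows.

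**Figure D2:**
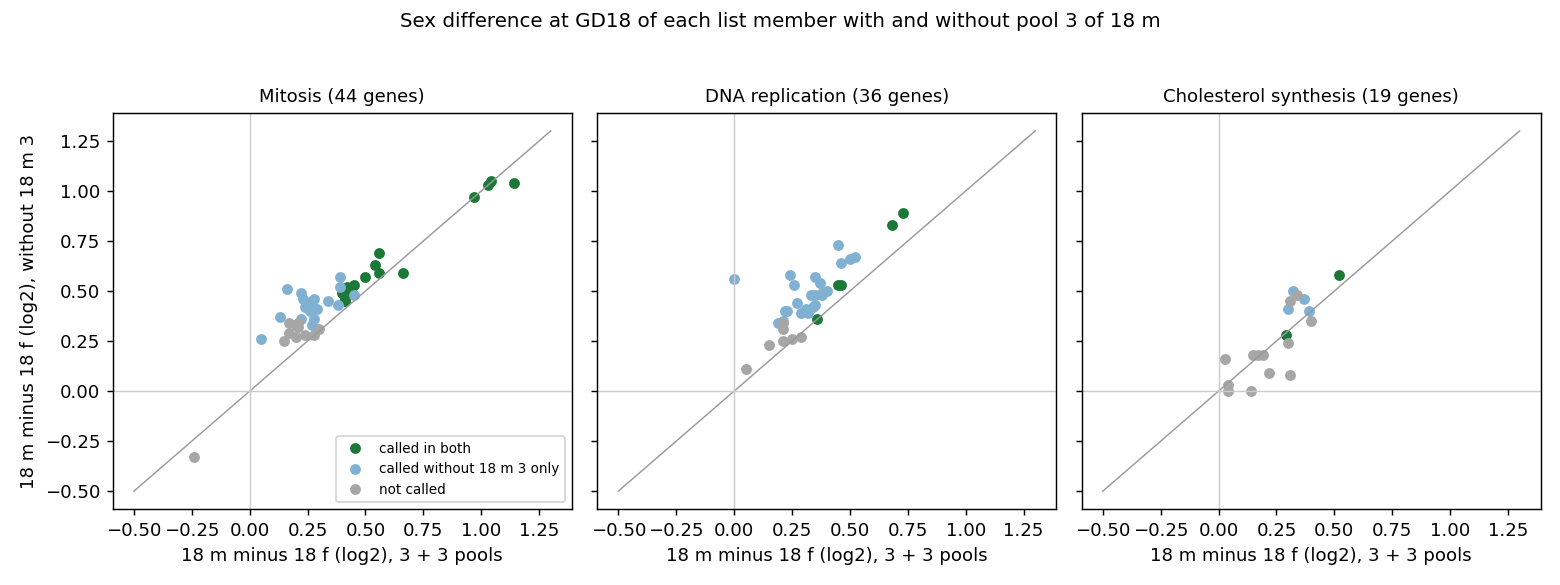
Difference between 18 m and 18 f (log2) of every member of the mitosis, DNA replication and cholesterol lists, with all 3 + 3 pools on the horizontal axis and without pool 3 of 18 m on the vertical axis. Green points were called in both fits, light blue points only without pool 3 of 18 m, and grey points in neither. Most replication genes lie above the diagonal of equal values, and 29 of 36 were called without pool 3, against 5 with it.

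Genes of cholesterol synthesis had small positive differences. Of 19 genes of synthesis and uptake, 2 were called higher and 0 lower, beside 1.43% and 0.234% of all autosomal genes. All 19 differences were positive, and the median was 0.30. With pool 3 of 18 m left out, 6 were called higher and 0 lower, and the median was 0.24. The shares of all autosomal genes were then 5.37% and 1.11%. The list's mean relative level was 0.17, 0.11 and 0.10 in 18 m, against -0.18, -0.04 and -0.16 in 18 f, so that the groups did not overlap in this sum of genes. The count was 1 without pool 1 or pool 3 of 18 f or without pool 1 of 18 m, and 1 after cyclic loess.

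Idi1, the isomerase that interconverts the isoprenoid building blocks of sterols, was at 8.99, 8.89 and 8.76 in 18 m, against 8.30, 8.46 and 8.30 in 18 f. The difference was 0.52 (SE 0.09, adjusted p = 0.0062), a 1.44-fold higher signal, and it was called with every pool left out in turn. Hmgcs1, the synthase that starts the mevalonate pathway, was at 11.54, 11.45 and 11.51 in 18 m, against 11.21, 11.30 and 11.13 in 18 f. Its difference was 0.29 (SE 0.06, adjusted p = 0.026), and the call was lost without pool 1 of 18 f (adjusted p = 0.10), without pool 3 of 18 f (adjusted p = 0.12) or without pool 1 of 18 m (adjusted p = 0.082). Cyp51, a demethylase of lanosterol, differed by 0.37 (SE 0.10, adjusted p = 0.083), Sqle, a rate-limiting oxygenase of the pathway, by 0.30 (SE 0.10, adjusted p = 0.18), and Srebf2, the transcription factor that controls these genes, by 0.04 (SE 0.08, adjusted p = 0.87).

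The promoters of both called genes are shown in GRCm38.p6 on the plus strand, at chr13:8885356-8885655 for Idi1 and chr13:119690101-119690400 for Hmgcs1. Capitals mark the sterol regulatory element-type motif, searched on both strands as TCACNCCAC, and CCAAT.
Idi1: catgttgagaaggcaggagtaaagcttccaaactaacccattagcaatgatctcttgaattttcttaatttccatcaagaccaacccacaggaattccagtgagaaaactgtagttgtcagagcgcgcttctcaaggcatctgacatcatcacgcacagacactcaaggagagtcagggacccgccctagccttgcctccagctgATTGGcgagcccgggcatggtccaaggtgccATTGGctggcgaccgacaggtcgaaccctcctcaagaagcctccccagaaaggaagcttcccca
Hmgcs1: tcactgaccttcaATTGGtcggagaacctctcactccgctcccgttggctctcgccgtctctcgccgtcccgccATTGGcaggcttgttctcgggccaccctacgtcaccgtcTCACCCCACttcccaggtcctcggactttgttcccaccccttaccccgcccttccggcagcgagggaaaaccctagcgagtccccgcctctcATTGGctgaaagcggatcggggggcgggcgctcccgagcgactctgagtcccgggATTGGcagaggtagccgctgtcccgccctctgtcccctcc
TCACNCCAC was found once in the Hmgcs1 window and in 1.24% of all promoter windows, and in 1 of 19 windows of the list. CCAAT was found in 73.7% of those windows, 2 times in that of Idi1 and 4 times in that of Hmgcs1.

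Of 29 genes of fatty acid and phospholipid synthesis, 2 were called higher and 0 lower, beside 1.43% and 0.234% of all autosomal genes. The median difference was -0.06. The count without pool 3 of 18 m was 1 higher and 0 lower, beside 5.37% and 1.11% of all autosomal genes. Elovl6, which elongates palmitate to stearate, was at 7.61, 7.64 and 8.10 in 18 m, against 7.10, 7.43 and 7.09 in 18 f (difference 0.58, SE 0.13, adjusted p = 0.035). Crls1, the cardiolipin synthase of mitochondria, differed by 0.26 (SE 0.06, adjusted p = 0.048). The groups did not overlap in either gene, but Elovl6 lost its call without pool 1 or 3 of 18 f and Crls1 with any pool left out (adjusted p between 0.063 and 0.14). Chka, the kinase that starts phosphatidylcholine synthesis, was at 9.15, 9.23 and 9.16 in 18 m and at 9.55, 9.42 and 9.31 in 18 f (difference -0.25, SE 0.06, adjusted p = 0.062).

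A further list held 16 genes that the study names for a sex difference at GD18 or measured by PCR. Of these, 4 were called higher in 18 m, namely Idi1, Elovl6, Crls1 and Gli1, and 0 lower. The shares of all autosomal genes were 1.43% and 0.234%. The study drew its PCR genes from those with a sex difference or flutamide sensitivity. All 16 genes were chosen on the same samples, so the count is not independent evidence. The count was 1 without pool 1 or pool 3 of 18 f and 2 without pool 2 of 18 f or pool 2 of 18 m. Without pool 3 of 18 m it was 3, beside 5.37% of all autosomal genes called higher. Gli1, a transcription factor and target of hedgehog signalling, was at 7.08, 7.39 and 7.48 in 18 m, against 6.93, 6.91 and 6.72 in 18 f (difference 0.46, SE 0.11, adjusted p = 0.037). Its adjusted p was 0.053 without pool 3 of 18 m, and it was called with 1 of the 6 pools left out, pool 1 of 18 m. Gli1 was the only called gene among 17 of the hedgehog pathway, whose median difference was 0.00. Nr5a2, a nuclear receptor, differed by 0.31 (SE 0.11, adjusted p = 0.18) and Rock1, a kinase of the cytoskeleton, by 0.44 (SE 0.12, adjusted p = 0.071). Gli3, another hedgehog transcription factor, differed by 0.24 (SE 0.07, adjusted p = 0.097) and was called without pool 3 of 18 m (0.31, adjusted p = 0.015), while Chka, above, was lower in every 18 m pool without passing the test. Of the PCR genes, Nr2c2 differed by 0.05, Cdk6 by 0.07, Nfib by 0.09 and Sirt1 by 0.12, with adjusted p of 0.54 or more. These calls depend on the probe set of highest mean. Of 6 further probe sets of Nfib 1 was called lower, as was 1 of 2 of Pikfyve, another gene of the list (difference 0.07). Nr5a2 and Rock1 each had 1 further probe set called higher.

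The gene with the largest difference was Zfp820, a zinc finger gene on chromosome 17. It was at 6.11, 6.35 and 6.41 in 18 m, against 5.10, 5.08 and 4.89 in 18 f, a 2.40-fold higher signal (difference 1.27, SE 0.11, adjusted p = 1.7e-05). The genes named Zfp with a number alone were therefore counted as a group, chosen after these values were seen. Of 299, 17 were called higher (5.69%) and 1 lower, beside 1.43% and 0.234% of all autosomal genes, and the median difference was 0.06. Without pool 3 of 18 m the counts were 25 and 4, beside 5.37% and 1.11% of all autosomal genes. They were 8 and 1 without pool 1 of 18 f, 7 and 1 without pool 3 of 18 f and 10 and 1 without pool 2 of 18 m. Chromosome 17 held 38 of them, of which 9 were called higher and 1 lower. Zfp995 (0.83, SE 0.11, adjusted p = 0.0017) and Zfp946 (0.81, SE 0.12, adjusted p = 0.0043) of the same chromosome were called with each pool left out, as were Zfp758, Zfp810, Zfp932 and Zfp943. The 1 further probe set of Zfp943 did not share its sign. Zfp518a, whose name ends in a letter and which was not among the 299, was also called with each pool left out. The lower one was Zfp945, also on chromosome 17, at 8.71, 8.69 and 8.46 in 18 m, against 9.21, 9.33 and 9.32 in 18 f (difference -0.67, SE 0.10, adjusted p = 0.0033). Zinc finger genes of this kind form families of near copies, and probes of 1 member can bind another, so the values may not belong to single genes. Of the 17 genes called higher 11 had further probe sets, and in 2 of these another probe set was called higher.

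In all, 33 genes were called with each of the 6 pools left out in turn, 29 higher and 4 lower in 18 m, and they are named here after their values were seen. Besides the mitotic, replication, sterol and zinc finger genes above, they include Cep290, a protein of the base of the cilium, at 5.01, 5.08 and 5.12 in 18 m, against 4.29, 4.16 and 3.82 in 18 f (difference 0.98, SE 0.13, adjusted p = 0.0015). Haus3, part of the augmin complex that branches spindle microtubules, was higher by 0.66 (SE 0.10, adjusted p = 0.0041). Genes of the nucleolus and of RNA processing were Nol8 at 0.75 (SE 0.10, adjusted p = 0.0024), Esf1 at 0.75 (SE 0.11, adjusted p = 0.0034), Gar1, of the snoRNPs that pseudouridylate RNA, at 0.48 (SE 0.07, adjusted p = 0.0033), Lyar at 0.47 (SE 0.07, adjusted p = 0.0037), Znhit6 at 0.46 (SE 0.06, adjusted p = 0.0024) and the exosome gene Exosc9 at 0.41 (SE 0.06, adjusted p = 0.0049). Nol8 was at 7.75, 8.02 and 8.23 in 18 m, against 7.22, 7.31 and 7.21 in 18 f, and none of these genes overlapped between the groups. The mitochondrial ribosome genes Mrps25 (0.47, SE 0.07) and Mrpl46 (0.37, SE 0.06), the complex I assembly gene Ndufaf4 (0.45, SE 0.07) and the translation initiation genes Eif5 (0.36, SE 0.06) and Denr (0.40, SE 0.07) were also among them, with adjusted p between 0.0037 and 0.0071. No list of ribosome biogenesis genes was counted.

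Other lists held few calls. Over all autosomal genes, 1.43% were called higher and 0.234% lower with all pools. Without pool 3 of 18 m the shares were 5.37% and 1.11%, and the counts below stand beside these shares. Of 32 genes of oxidative phosphorylation 0 were called, although 32 differences were positive and the median was 0.14, and 2 were called higher without pool 3 of 18 m. Of 29 SR and hnRNP splicing factor genes 1 was called higher, Srsf3 (0.43, SE 0.09, adjusted p = 0.025), and 9 were called higher and 1 lower without pool 3. Of 22 heat shock and unfolded protein response genes 1 was called higher, Hspd1 (0.38, SE 0.09, adjusted p = 0.043), a chaperonin of mitochondria, and 3 were called higher without pool 3. Srsf3 kept its call with 2 of the 6 pools left out and Hspd1 with 1, pool 2 of 18 f. Tfrc, the transferrin receptor that dividing and erythroid cells use to take up iron, was called in the list of 13 erythroid genes, at 10.41, 10.54 and 10.71 in 18 m, against 9.79, 10.01 and 9.86 in 18 f (difference 0.66, SE 0.13, adjusted p = 0.019). The list's mean relative level was 0.82 in pool 3 of 18 m, against -0.13 and -0.06 in the other 18 m pools and -0.36 to -0.12 in 18 f, and Tfrc was also called without pool 3 (adjusted p = 0.025).

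**Figure D3:**
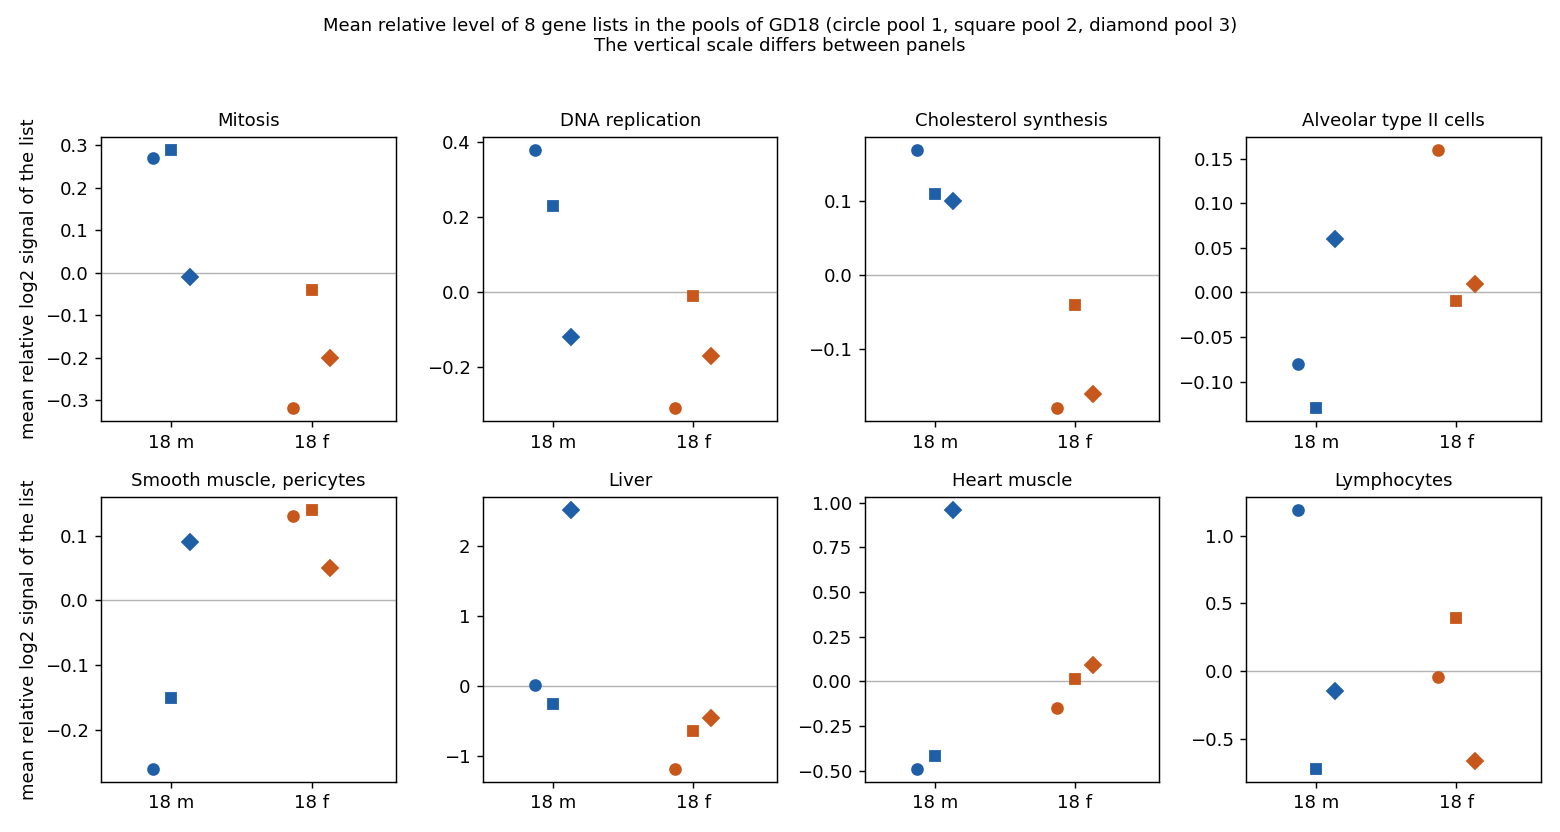
Mean relative log2 signal of 8 gene lists in each pool of GD18, where each gene was centred on its mean over the 6 pools. Blue points are 18 m and orange points 18 f, the shape gives the pool number, and the vertical scale differs between panels. In mitosis and cholesterol genes every 18 m pool lies above every 18 f pool, whereas in liver genes pool 3 of 18 m lies at 2.51, far above all others. In mitosis the gap is narrow, with pool 3 of 18 m at -0.01 and pool 2 of 18 f at -0.04.

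Only 41 genes were called lower in 18 m. Zbed6, a transcription repressor, had the least spread of them, at 8.87, 8.91 and 8.89 in 18 m, against 9.45, 9.40 and 9.46 in 18 f (difference -0.55, SE 0.08, adjusted p = 0.0037). Itch, a ubiquitin ligase, was at 8.53, 8.71 and 8.36 in 18 m and at 8.96, 9.15 and 9.21 in 18 f (difference -0.57, SE 0.08, adjusted p = 0.0033). Tlk2, a kinase of chromatin assembly, was at 9.83, 9.90 and 9.88 in 18 m and at 10.38, 10.36 and 10.50 in 18 f (difference -0.54, SE 0.08, adjusted p = 0.0040). These genes and Zfp945 were called with every pool left out in turn, and their groups did not overlap. Of their further probe sets 0 were called. The sign was shared by 2 of 4 of Tlk2, 2 of 3 of Itch, 1 of 2 of Zfp945 and 1 of 1 of Zbed6. Further chromatin and transcription genes called lower were Hmbox1 (-0.54, SE 0.10, adjusted p = 0.017), the remodeler gene Srcap (-0.56, SE 0.11, adjusted p = 0.016), Scmh1 (-0.45), Chd8 (-0.37), Nsd3 (-0.29) and Kansl1 (-0.33), the last 4 named after their values were seen. Hmbox1 kept its call with 5 of the 6 pools left out, Srcap with 4, Scmh1 with 3, Nsd3 with 2, and Chd8 and Kansl1 with 1. Of 3 further probe sets of Chd8, 0 shared its sign. No list of chromatin genes was counted. Of the 29 lower genes with further probe sets, 5 had another probe set called lower and 0 had one called higher.

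Fos, a subunit of the AP-1 transcription factor, was also called lower, at 8.63, 8.43 and 8.72 in 18 m, against 9.28, 9.09 and 9.19 in 18 f (difference -0.59, SE 0.11, adjusted p = 0.011). It was the 1 called gene among 26 immediate early genes, whose median difference was -0.12, beside 0.234% called lower over all autosomal genes. When pool 3 of 18 m was left out, 4 were called lower, and Fos lost its call without pool 1 of 18 f (adjusted p = 0.065) or pool 3 of 18 f (adjusted p = 0.053). Bhlhe40, a repressor in the circadian clock, was at 8.61, 8.45 and 8.77 in 18 m, against 9.51, 9.43 and 8.88 in 18 f (difference -0.67, SE 0.15, adjusted p = 0.032). Clock, which drives the clock's transcription, was at 7.77, 8.0 and 8.07 in 18 m, against 8.51, 8.46 and 8.30 in 18 f (difference -0.48, SE 0.09, adjusted p = 0.018). They were the 2 called genes among 17 of the clock, of which 0 were called higher, the median was -0.16, and 4 were called lower without pool 3 of 18 m. Bhlhe40 kept its call with 2 of the 6 pools left out and Clock with 4.

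Other genes among the most lowered were F3, the tissue factor that starts coagulation (-0.62, SE 0.14, adjusted p = 0.037), Fbxo32, a ubiquitin ligase subunit of muscle wasting (-0.61, SE 0.14, adjusted p = 0.042), Gipr, an incretin receptor (-0.62, SE 0.14, adjusted p = 0.032), and the phosphatase gene Ptprr (-0.59, SE 0.10, adjusted p = 0.0093). F3 and Fbxo32 were called with 1 of the 6 pools left out, pool 3 of 18 m, Gipr with 2 and Ptprr with 5. Of 18 glucocorticoid receptor, activation and target genes, 0 were called, and the median difference was -0.15. In the absence of pool 3 of 18 m, 3 were called lower. Zbtb16, a transcription factor induced by glucocorticoids, was at 10.21, 10.33 and 11.01 in 18 m, against 11.10, 10.86 and 10.87 in 18 f. It differed by -0.43 (SE 0.20, adjusted p = 0.35) with all pools and by -0.67 (adjusted p = 0.036) without pool 3. Klf15, another known glucocorticoid target, was at 8.62, 8.49 and 9.07 in 18 m and at 9.40, 9.17 and 9.07 in 18 f, with a difference of -0.49 (SE 0.13, adjusted p = 0.070) that was -0.66 without pool 3 (adjusted p = 0.0053). Nr3c1, the glucocorticoid receptor gene, differed by -0.18 (SE 0.07, adjusted p = 0.25).

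Among genes that were not called with all pools but were called without pool 3 of 18 m, those with the largest differences included Traf1, an adaptor of TNF receptors, at 7.49, 7.35 and 7.81 in 18 m, against 8.69, 8.09 and 8.13 in 18 f. Its difference was -0.75 (SE 0.19, adjusted p = 0.054) with all pools and -0.88 (adjusted p = 0.019) without pool 3. Rgs4, a regulator of G protein signalling, differed by -0.67 (adjusted p = 0.054) and by -0.86 (adjusted p = 0.0078) without pool 3. Fhod3, a formin of cardiac muscle, was at 6.27, 6.27 and 7.53 in 18 m, against 6.93, 6.92 and 6.94 in 18 f, and was called without pool 3 (-0.66, adjusted p = 0.0070). The pool left out there was the highest of the 6 and was also high in heart genes. On the higher side Cenps, a centromere protein, differed by 0.61 (adjusted p = 0.054) and by 0.83 without pool 3 (adjusted p = 0.0025). It was also called without pool 2 of 18 f (adjusted p = 0.037).

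Rian, a noncoding RNA of the imprinted Dlk1 region, was lower in 18 m. Of 24 imprinted and nuclear noncoding genes 1 was called lower and 0 higher, and the median difference was 0.01. It was at 9.36, 9.27 and 9.50 in 18 m, against 9.94, 9.88 and 9.66 in 18 f (difference -0.45, SE 0.10, adjusted p = 0.027). Rian, Mirg, Meg3 and Dlk1 itself were called lower without pool 3 of 18 m, with differences of -0.51, -0.34, -0.43 and -0.35. Rian lost its call without pool 1 or 2 of 18 f or without pool 1 or 2 of 18 m (adjusted p between 0.073 and 0.14).

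Markers of the mature lung did not pass the test. Among 20 alveolar type II cell genes none passed (0 called), with a median difference of -0.09, and 18 of the 20 were lower in 18 m. Sftpb, which encodes a surfactant protein needed for breathing, was at 11.57, 11.56 and 11.49 in 18 m, against 11.94, 11.74 and 11.73 in 18 f, with a difference of -0.26 (SE 0.15, adjusted p = 0.45). Its pools did not overlap, a property shared by 6.44% of all genes in this direction. Sftpa1 differed by -0.09 (SE 0.24), Sftpc by -0.02 (SE 0.07) and Sftpd by -0.20 (SE 0.28), with adjusted p of 0.82 or more. The lipid transporter gene Abca3 differed by -0.07 (SE 0.12, adjusted p = 0.85). Without pool 3 of 18 m, 0 type II genes were called, and the median was -0.14.

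Of 18 genes of alveolar type I cells, the flat cells of gas exchange, 0 were called, with a median of -0.19, and 1 was called lower without pool 3 of 18 m. Ager, a marker of these cells, was at 13.17, 13.09 and 13.30 in 18 m and at 13.37, 13.19 and 13.27 in 18 f (adjusted p = 0.88). No gene was called among 11 of club cells, 18 of ciliated cells, 23 of endothelium, 18 of macrophages and 12 of lipofibroblasts, whether or not pool 3 of 18 m was kept. Of 16 smooth muscle and pericyte genes 0 were called, with a median of -0.23, and 3 were called lower without pool 3. Acta2, smooth muscle actin, was at 12.45, 12.49 and 12.73 in 18 m, against 12.79, 12.80 and 12.79 in 18 f, with a difference of -0.24 (SE 0.09, adjusted p = 0.19) and of -0.32 without pool 3 (adjusted p = 0.030). After a further quantile normalization 2 of these 16 genes were called lower, and after cyclic loess 1.

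Of 27 fibroblast and extracellular matrix genes 1 was called lower and 0 higher, 24 were lower in 18 m, and the median was -0.11. It was Col6a1, a chain of collagen VI, at 11.59, 11.56 and 11.61 in 18 m, against 11.93, 11.82 and 11.87 in 18 f (difference -0.29, SE 0.07, adjusted p = 0.036), and it was called with 1 of the 6 pools left out, pool 3 of 18 m, when 2 genes of the list were called lower. Growth factor pathways gave 0 called genes of 20 for FGF, 21 for TGF-beta, 23 for BMP, 33 for Wnt and 16 for the IGF axis, with medians between -0.12 and 0.02. Without pool 3 of 18 m, 1 TGF-beta and 1 BMP gene were called higher and 1 Wnt gene lower, beside 5.37% and 1.11% of all autosomal genes. Of 24 genes of androgen metabolism and receptor co-regulators 0 were called, and 3 were called higher without pool 3 of 18 m. Of the 28 liver genes 0 were called with or without pool 3, although the median difference was 1.53 with pool 3 of 18 m and 0.55 without it.

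The same comparison at GD17, made on other arrays, asked whether these differences were already present a day earlier. Of all autosomal genes, 290 were called between 17 m and 17 f (1.66%). Of the 251 genes called higher at GD18, 19 were called higher and 10 lower in 17 m, and the median of their GD17 differences was -0.08. Of the 41 genes called lower at GD18, 21 were called higher in 17 m and 0 lower, and the median of their GD17 differences was 0.31, against -0.05 for all autosomal genes.

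Zbed6 was at 9.43, 9.22 and 9.02 in 17 m, against 8.66, 8.63 and 8.70 in 17 f, a difference of 0.56 (adjusted p = 0.00081) where GD18 had -0.55. Clock was at 8.26, 8.25 and 8.06 in 17 m, against 7.68, 7.68 and 7.57 in 17 f, a difference of 0.55 (adjusted p = 0.0025). Rian was at 9.54, 9.65 and 9.81 in 17 m, against 9.02, 8.99 and 9.09 in 17 f, a difference of 0.63 (adjusted p = 0.0011). In all 3 genes the male pools lay wholly above the female pools at GD17 and wholly below them at GD18. Fos, Bhlhe40, F3 and Fbxo32 did not show this pattern, with GD17 differences between -0.14 and 0.03 and adjusted p of 0.56 or more.

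Mki67 was at 11.08, 11.08 and 10.91 in 17 m, against 10.89, 10.60 and 10.70 in 17 f, a difference of 0.29 (adjusted p = 0.20) that was smaller than the 1.14 of GD18. Cenpe was at 8.52, 8.33 and 8.18 in 17 m and at 8.13, 7.90 and 7.94 in 17 f, a difference of 0.36 (adjusted p = 0.080). Over the lists, the median GD17 difference was 0.01 for mitosis, -0.11 for DNA replication and -0.18 for cholesterol synthesis.

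The difference at GD18 minus that at GD17 was called in 852 autosomal genes (4.86%), 694 positive and 158 negative. It was called in 155 of the 251 genes higher at GD18 and in 27 of the 41 lower ones, shares that are raised by the choice of genes, since the GD18 difference is part of the test. In mitosis it was called in 7 of 44 genes, in DNA replication in 7 of 36 and in cholesterol synthesis in 6 of 19, all positive. For Mki67 it was 0.85 (SE 0.16, adjusted p = 0.0045), and for Zbed6 -1.10 (SE 0.11, adjusted p = 7.2e-05).

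Exocrine pancreas genes were high in 3 pools of GD17, with a mean relative level of 1.24 in pool 3 of 17 m and of 1.83 and 1.78 in pools 2 and 3 of 17 f, against -1.51 and -1.85 in the other 17 m pools and -1.50 in pool 1 of 17 f. Without these 3 pools, which leaves 1 pool of 17 f, the difference between the days was called in 118 genes, among them 24 of the 251 and 23 of the 41. The median GD17 difference of the genes lower at GD18 was then 0.41, and that of the genes higher at GD18 was -0.05. Zbed6 then had an adjusted p of 0.0011, Mki67 of 0.031 and Cenpe of 0.068. The part of pancreas RNA in the difference between days was not tested further.

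**Figure D4:**
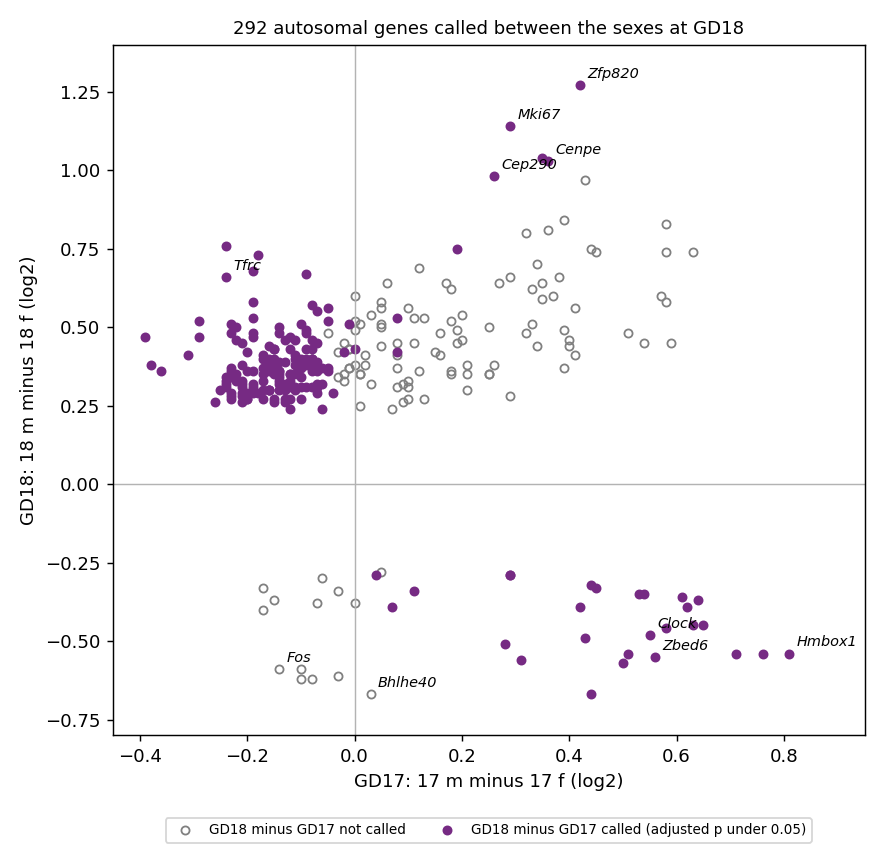
Difference between 18 m and 18 f (log2, vertical axis) against that between 17 m and 17 f (log2, horizontal axis) for the 292 autosomal genes called at GD18. Filled purple points are the genes whose difference between the days was called, and open grey points are the others. Of 41 genes lower in 18 m, 29 lie to the right of 0, where 17 m was higher than 17 f, and genes higher in 18 m lie on both sides.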

How the data were processed

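The authors hybridized pooled lung RNA to Affymetrix arrays and deposited, per probe set, an intensity normalized by RMA, on a linear scale, of which log2 was taken here. Of 45101 probe sets 64 controls were left out and 45037 tested. Names came from the platform annotation (34945 probe sets with 1 symbol, 932 with several, 9160 with none), and chromosomes and promoters from RefSeq for GRCm38.p6. A model of 6 group means was fitted to 18 arrays with limma 3.58.1 in R 4.3.3 (12 residual degrees of freedom), and p-values were adjusted over all probe sets. The same model gave the GD17 difference and the difference between days. The fit was tested on simulated data. The number of arrays limits the precision. The p-values rest on the spread between pools within all 6 groups, not within 18 m and 18 f alone.

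Genes named were the 12 largest in each direction among called genes whose pools did not overlap, likewise without pool 3 of 18 m. Added to these were up to 4 of smallest p per list and those the study names for the sexes at GD18 or measured by PCR. Some were chosen after their values were seen, as stated or as further members of a list. Members and lists were chosen with earlier results of these data known. Alternatives varied the scaling, filter, weights, variance prior, probe set rule, threshold, arrays and replicate block, and 2 sets of left-out pools were added after seeing the data.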

Additional observations from a re-analysis of the deposited data

Results flagged for a closer look

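For 50 of the genes followed the difference between male and female pools at GD18 differed from that at GD17, by limma's test of that difference over all probe sets (adjusted p under 0.05). Values below are the GD18 difference minus the GD17 difference on the log2 scale. The GD18 values that chose many of these genes are part of them.

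It was positive for 34 genes. Among genes of cell division it was 0.85 for Mki67, 0.67 for Cenpe, 0.69 for Cenpf, 0.84 for Cenps, 0.61 for Ncapg, 0.49 for Sgo1, 0.88 for Gins1, 0.91 for Cdc6, 1.00 for Dscc1, 0.51 for Lig1 and 0.68 for Rpa2. Among lipid genes it was 0.57 for Idi1, 0.36 for Hmgcs1, 0.55 for Cyp51, 0.77 for Elovl6 and 0.52 for Crls1. Among genes of RNA processing, the nucleolus and translation it was 0.56 for Nol8, 0.57 for Gar1, 0.76 for Lyar, 0.55 for Znhit6, 0.57 for Exosc9, 0.52 for Srsf3, 0.43 for Eif5 and 0.50 for Denr. Among mitochondrial genes it was 0.65 for Mrps25, 0.52 for Mrpl46, 0.52 for Ndufaf4 and 0.47 for Hspd1. It was 0.90 for Tfrc, 0.84 for Zfp820, 0.43 for Zfp810, 0.72 for Cep290, 0.59 for Gli1 and 0.76 for Lrrn3, a transmembrane protein of neurons.

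It was negative for 16 genes. It was -1.35 for Hmbox1, -1.11 for Zfp945, -1.10 for Zbed6, -1.10 for Scmh1, -1.08 for Rian, -1.07 for Itch, -1.05 for Tlk2, -1.02 for Clock, -1.01 for Chd8, -0.97 for Gsap, -0.87 for Srcap, -0.86 for Rgs4, -0.78 for Kansl1, -0.58 for Nsd3, -0.58 for Col6a1 and -0.56 for Chka. Without the 3 GD17 pools that were high in exocrine pancreas genes, all 50 kept their sign and 21 were called. These were Mki67, Zfp820, Exosc9, Lyar, Mrpl46, Mrps25 and Znhit6 among the positive ones and Chd8, Chka, Clock, Col6a1, Hmbox1, Itch, Kansl1, Nsd3, Rian, Scmh1, Srcap, Tlk2, Zbed6 and Zfp945 among the negative ones.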

How the results depend on the processing

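With each pool left out in turn, the number of autosomal genes called at GD18 lay between 45 and 1134, of which 39 to 940 were higher in 18 m and 6 to 194 lower, and the difference between days was called in 359 to 1598 genes. All 292 genes kept their sign in each case. For the 287 whose pools did not overlap this was fixed in advance, since no left-out pool could change it. The difference between days was called in 359 genes without pool 1 of 18 f, 514 without pool 3 of 18 f, 455 without pool 2 of 17 f, 383 without pool 3 of 17 f, 492 without pool 2 of 17 m and 1598 without pool 3 of 18 m, and in 118 without the 3 GD17 pools high in pancreas genes. Without pool 3 of both 18 m and the flutamide-treated males of GD18, 1018 genes were called (856 higher, 162 lower), and 1472 between days.

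The count was 61 (53 higher, 8 lower) with the 12 vehicle arrays alone and 3 (3 higher, 0 lower) by limma with only the 6 arrays. It was 620 (524 higher, 96 lower) with the dimmer probe sets (mean below the median) left out, 457 (381 higher, 76 lower) with a trended robust prior, and 39 (34 higher, 5 lower) at an adjusted p under 0.01, where 197 were called between days. Array weights, lowest for pool 3 of 18 m, gave 1982 (1554 higher, 428 lower), and 2076 between days. Lower genes numbered 76 after a further quantile normalization and 81 after cyclic loess. The cause was not tested.

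The replicate number as a block (replicate block) gave 151 genes (128 higher, 23 lower). Same-numbered pools of GD18 correlated at -0.04, 0.0358 and 0.138 in their deviations, and those of GD17 at 0.361, -0.315 and 0.373. Pools of different numbers lay between -0.203 and 0.24 at GD18 and between -0.527 and 0.437 at GD17. Whether pools of the same number shared litters or handling was not tested. Of 1952 alternatives for 109 genes followed, 1532 kept direction and call, 320 lost the call, 87 gained it and 13 reversed, all in genes that were not called. With pools left out, Rrm1 lay between -0.36 and 0.56, negative without pool 1 of 18 f (-0.09) and without pool 1 or 2 of 18 m (-0.36 and -0.20), and it was at -0.04 after quantile normalization or cyclic loess. Plk1 lay between -0.00 (without pool 1 of 18 m) and 0.37, and Sftpc between -0.03 and 0.01 (without pool 1 of 18 f). With the mean of a gene's probe sets Sftpc was at 0.05, Nfib at -0.05, Nr2c2 at -0.04 and Srebf2 at -0.06, and with array weights Cdk6 was at -0.00 and Srebf2 at -0.01.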
